A study of Mus musculus with 2 samples.

Results

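The choroid plexus and ciliated cell microRNAs described here are 8 genes: Mir204 and Mir211, which lie in introns of the Trpm channel genes, and the Mir34 and Mir449 genes (Mir34a, Mir34b, Mir34c, Mir449a, Mir449b and Mir449c). They were chosen by gene symbol out of 2202 microRNA genes. Their abundance was measured by sequencing of small RNAs in left cerebral cortex tissue of male B6CASTF1/J mice, 14 days of age. The mice are the first-generation cross of C57BL/6 and CAST/Ei. There was 1 group with 2 libraries, replicate 1 and replicate 2, and no treatment or mutant, so the levels of the genes and their spread between the libraries are described. The libraries share 1 donor label but have a tissue record each, and nothing in the labels states that the animals differed. The SDs therefore describe how far these samples lie apart, and that distance can be technical. The p-values, where given, compare these samples with read sampling alone and become smaller with more counts. A difference that they mark can be technical too.

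A microRNA acts through its seed, bases 2 to 8 of the mature RNA, which pairs with sites in messenger RNAs and lowers their translation and stability. miR-204 is known as an abundant microRNA of the choroid plexus, the epithelium in the brain ventricles that makes cerebrospinal fluid, and of the retinal pigment epithelium. miR-211 is its close relative and is best known from melanocytes. The Mir34b and Mir34c pair and the Mir449 cluster are known for their role in multiciliated epithelia, where they promote the making of motile cilia. Mir34a is also a target of the p53 transcription factor and is expressed more widely, in neurons among other cells.

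The mature 5p sequences are shown because their shared seeds define the families and because a single base separates miR-204 from miR-211. Seeds are in capitals. Sequences are from RefSeq (GRCm38.p6), written 5′ to 3′; 7 of the 8 genes matched its table, and Mir449b did not.
mmu-miR-204-5p: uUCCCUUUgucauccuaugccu
mmu-miR-211-5p: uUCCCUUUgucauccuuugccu
mmu-miR-34a-5p: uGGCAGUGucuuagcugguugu
mmu-miR-34b-5p: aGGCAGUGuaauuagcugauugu
mmu-miR-449a-5p: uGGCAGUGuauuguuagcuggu
mmu-miR-449c-5p: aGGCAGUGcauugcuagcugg

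The miR-34 and miR-449 5p forms shared the seed GGCAGUG, and no other of the 1738 mature forms in the table had it; miR-34c-5p is not in this comparison, but the Mir34c hairpin holds the seed. The miR-204 and miR-211 5p forms shared the seed UCCCUUU, which miR-7670-3p also has. Its gene, Mir7670, had 0 counts in both libraries. Counted from 1 at the 5′ end, miR-204-5p and miR-211-5p differed by A17U alone over 22 bases, and their longest shared stretch was 16 bases. Within the other family, miR-449a-5p and miR-449c-5p differed at 3 of 21 positions and miR-34a-5p and miR-449a-5p at 7 of 22, aligned from the 5′ end without gaps. For Mir34c the hairpin is shown beside that of its neighbour Mir34b, with the family seed in capitals, because these neighbouring genes have similar sequences and very different counts.
Mir34b hairpin: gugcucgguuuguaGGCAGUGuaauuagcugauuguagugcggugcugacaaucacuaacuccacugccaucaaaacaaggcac
Mir34c hairpin: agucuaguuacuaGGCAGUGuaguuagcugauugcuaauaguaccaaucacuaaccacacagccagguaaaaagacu

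No member shared a stretch of 18 bases of hairpin with another microRNA gene, whereas 1120 of the 2202 microRNA genes did. Mir204 and Mir211 come near that length, since their 5p forms alone share 16 bases. The RefSeq table lists 13 mature forms of the members, miR-34c-5p not among them. Each of these forms matched the transcript of its own gene and of no other gene in GENCODE M21, on either strand. This bears on the counts because reads that matched several genomic positions, 39.1% of the reads of replicate 1 and 41.4% of those of replicate 2, were given to no gene. Copies outside annotated transcripts, and sequence differences of the CAST/Ei chromosomes, were not analysed here. A count covers a whole hairpin, so reads of the 5p and 3p arms are not separated. How evenly RNAs of different sequence were captured was not measured, so ratios between genes are ratios of counts. Listed mature forms were 21 to 23 bases long, so CPM values (the counts of a gene scaled to a library total of 1000000 counts in microRNA genes) were compared between members without a further length correction.

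In microRNA genes, replicate 1 held 4111167 counts and replicate 2 held 3189903. Detection required 10 counts or more in both libraries; 406 genes passed, 5 of the 8 members among them. The neuron list (10 genes) held 15.0% of the counts in replicate 1 and 13.9% in replicate 2, led by Mir139 (101560 and 83088 CPM), which carries the difference between the sums. By the split test described further on, 34.7% of all detected genes were higher and 23.4% lower in replicate 1. Genes with more counts pass it more readily. Of the 7 detected genes of the neuron list, 3 were higher and 4 lower past it. Mir132 was among the lower (12230 and 20125 CPM). The undetected genes of the neuron list, Mir124a-1, Mir124a-2 and Mir124a-3, had 19 counts or fewer per library and added little to its share. Their names mark them as copies of the same microRNA, and reads that matched several genomic positions were given to no gene. These counts therefore do not measure the level of miR-124, and the share of the neuron list leaves out such reads. No messenger RNA was measured, so the presence of choroid plexus or ciliated cells could not be checked against protein-coding markers, and the names of the cell types stand here only for the microRNA list. In bulk tissue, fewer cells of a type and less RNA per cell cannot be told apart.

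Mir34a and Mir204 carried most of the counts of the list. Together they made up 77.9% of its 6742 counts in replicate 1 and 74.5% of its 7369 counts in replicate 2. The list as a whole held 0.164% of all counts in replicate 1 (exact Clopper-Pearson 95% interval 0.160 to 0.168%) and 0.231% in replicate 2 (0.226 to 0.236%), a mean of 0.198% ± 0.0474 (SD, n = 2). Intervals cover counting error only, since several reads can come from 1 molecule where no molecular identifiers are used. The intervals of the libraries do not overlap.

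Mir204 (ENSMUSG00000065507.3; mm10 chromosome 19, 22750605 to 22750672, plus strand) is intronic in Trpm3, which encodes a cation channel. It had 2394 counts in replicate 1 and 2320 in replicate 2, or 582 and 727 CPM, with a mean of 655 ± 103 CPM (SD, n = 2). It ranked 128 among all genes by mean CPM. Its relative Mir211 (ENSMUSG00000065585.1; chromosome 7, 64205806 to 64205911, plus strand), intronic in the related channel gene Trpm1, had 6 counts in replicate 1 and 1 in replicate 2. These amount to 1.46 CPM (95% interval 0.536 to 3.18) and 0.313 CPM (0.00794 to 1.75), so Mir211 was not detected by the count minimum. Mir204 thus had 399 times the counts of Mir211 in replicate 1 (95% interval 183 to 1088) and 2320 times in replicate 2 (416 to 91674). On the 5p arm the reads of the genes are told apart by the base given above. The number of mismatches allowed in alignment is not given in the sources used here, and its part in the low count of Mir211 was not tested.

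Mir34a (ENSMUSG00000065493.1; chromosome 4, 150068454 to 150068555, plus strand) overlaps an exon of Gm37795, a transcript of unsettled type. It was the most abundant member by CPM, though not per base of hairpin, where it stood at 0.853 times Mir204. It had 2855 counts in replicate 1 and 3172 in replicate 2, or 694 and 994 CPM. Its mean of 844 ± 212 CPM (SD, n = 2) ranked 114 among all genes. The range of Mir34a over the libraries overlapped that of Mir204, so these neighbours in the order were not set apart. Within each library Mir34a had more counts than Mir204, at 1.19 times in replicate 1 (95% interval 1.13 to 1.26) and 1.37 times in replicate 2 (1.30 to 1.44).

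**Figure D1:**
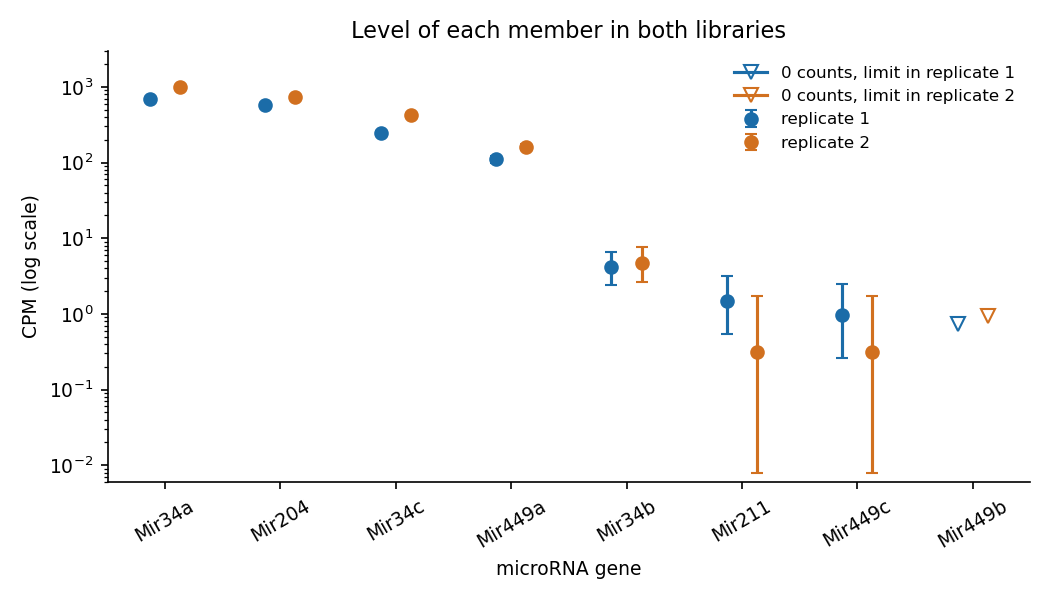
CPM (log axis) of the 8 genes, in order of mean level, in replicate 1 (blue) and replicate 2 (orange). Points are single libraries, bars are exact 95% intervals for counting error, and open triangles give the limit that 0 counts allow. Mir34a, Mir204, Mir34c and Mir449a lie between 109.9 and 994 CPM, and Mir34b, Mir211, Mir449c and Mir449b at 4.70 CPM or less.

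Mir34c and Mir34b lie 451 bases apart on the minus strand of chromosome 9, inside an intron of Btg4 on the opposite strand. Mir34c (ENSMUSG00000065587.1; 51103034 to 51103110) had 1014 counts in replicate 1 and 1349 in replicate 2, or 247 and 423 CPM, with a mean of 335 ± 125 CPM (SD, n = 2). Mir34b (ENSMUSG00000065492.1; 51103562 to 51103645) had 17 and 15 counts, or 4.14 and 4.70 CPM, with a mean of 4.42 ± 0.401 CPM. Mir34b was detected but had the lowest level of the detected members. Mir34c had 59.6 times the counts of Mir34b in replicate 1 (95% interval 37.1 to 103) and 89.9 times in replicate 2 (54.3 to 161). These intervals overlap, and a difference between the libraries in this ratio was not tested. The listed 3p forms of the pair share their seed too, and differ at 5 of 22 positions.
mmu-miR-34b-3p: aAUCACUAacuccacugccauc
mmu-miR-34c-3p: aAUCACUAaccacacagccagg

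The 3 Mir449 genes lie on the plus strand of chromosome 13, in introns of Cdc20b, a gene known from multiciliated cells. Mir449a (ENSMUSG00000065575.1; 113037534 to 113037624) had 452 counts in replicate 1 and 511 in replicate 2, or 109.9 and 160.2 CPM, with a mean of 135 ± 35.5 CPM (SD, n = 2). It alone of the cluster was detected. Mir449c (ENSMUSG00000076146.1; 113035983 to 113036091) had 4 counts in replicate 1 and 1 in replicate 2, so Mir449a had 113 times its counts in replicate 1 (95% interval 43.8 to 417) and 511 times in replicate 2 (91.3 to 20222). Mir449b (ENSMUSG00000078027.1; 113037419 to 113037498), only 35 bases from Mir449a, had 0 counts in replicate 1 and in replicate 2. The limits are 0.730 and 0.940 CPM. Against these limits of 3 counts per library, Mir449a was at least 151-fold higher in replicate 1 and at least 170.3-fold higher in replicate 2.

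**Figure D2:**
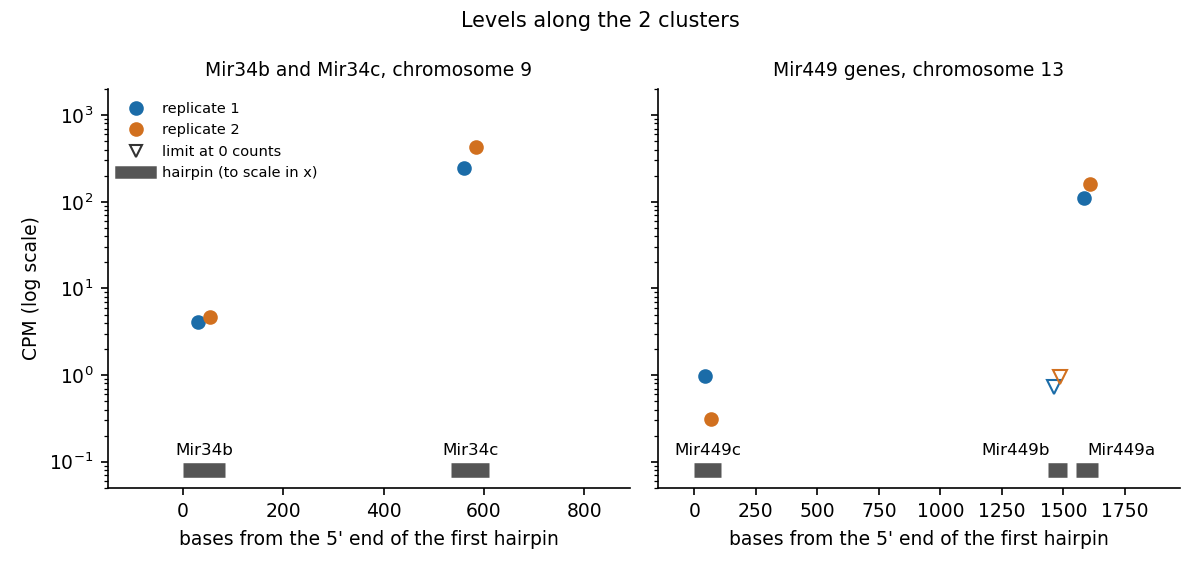
CPM (log axis) of the genes of both clusters against the distance in bases from the 5′ end of the first hairpin; grey bars are hairpins, to scale along the distance axis. In each cluster the gene farthest from that start, Mir34c (247 and 423 CPM) or Mir449a (109.9 and 160.2 CPM), stands above its neighbours, which lie at 4.70 CPM or less.

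In both clusters a single hairpin thus held nearly all counts, and in both it was the last in the direction of transcription. With 2 clusters this is a description of position only. The Mir34b and Mir34c pair had 2.26 times the counts of the Mir449 cluster in replicate 1 (95% interval 2.02 to 2.53) and 2.66 times in replicate 2 (2.40 to 2.95). Mir34a in turn had 2.82 times the counts of Mir34c in replicate 1 (2.62 to 3.03) and 2.35 times in replicate 2 (2.21 to 2.51).

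By family, the 6 Mir34 and Mir449 genes held 0.106% of all counts in replicate 1 and 0.158% in replicate 2, and Mir204 with Mir211 0.0584% and 0.0728%. The first family had 1.81 times the counts of the second in replicate 1 (95% interval 1.72 to 1.90) and 2.17 times in replicate 2 (2.07 to 2.29). Mir34a, the member known from the most cell types, decided that order: without it the mean ratio was 0.714 ± 0.133 (SD, n = 2). The genes best known from ciliated cells, Mir34b, Mir34c and the Mir449 genes, together had 0.621 times the counts of Mir204 in replicate 1 (0.582 to 0.663) and 0.809 times in replicate 2 (0.760 to 0.860).

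Over all 8 members the order by mean CPM was Mir34a, Mir204, Mir34c, Mir449a, Mir34b, Mir211, Mir449c and Mir449b. Of the 7 neighbouring pairs in this order, 5 had ranges over the libraries that did not overlap. The other pairs, Mir34a with Mir204 and Mir211 with Mir449c, overlapped. Among the 5, Mir449c with Mir449b was apart only because 0 counts was taken as 0 CPM. The limits for 0 counts, 0.730 and 0.940 CPM, lie within the range of Mir449c, 0.313 to 0.973 CPM. The last 3 genes rest on 6 counts or fewer per library, so their order was not detectable at this depth. Mir34a, Mir204, Mir34c and Mir449a stood above the median of the 406 detected genes, 129 CPM, by their means.

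Each detected member was lower in replicate 1 than in replicate 2. A two-sided exact binomial test asked whether a gene's counts divided between the libraries as their totals do, with p-values adjusted by Benjamini-Hochberg over the 406 detected genes, threshold 0.05. The test compares these libraries with read sampling only, and no conditions. Across all detected genes, 23.4% were lower in replicate 1 past it, 34.7% higher, and 58.1% in either direction. A gene passes more readily with more counts. With a minimum of 50 counts in each library, 89 of 291 genes were lower in replicate 1 past the test and 128 higher. Among the 5 detected members, 4 were lower past it and none higher. Mir34c had the largest difference, with a log2 ratio of replicate 1 over replicate 2 of -0.78 (adjusted p = 3.11e-38, exact binomial test). The ratios were -0.52 for Mir34a (adjusted p = 2.86e-43, exact binomial test), -0.54 for Mir449a (1.62e-08) and -0.32 for Mir204 (9.89e-14). Mir34b, at -0.19 (adjusted p = 0.796, exact binomial test), did not pass. Its 32 counts limit the precision.

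The median log2 ratio was -0.52 over the 5 detected members and 0.08 over all 406 detected genes, of which 43.1% had a negative ratio. The median absolute log2 ratio over all detected genes was 0.30, so Mir204 differed about as much as the middle gene, and Mir34c, Mir449a and Mir34a by more. TMM library sizes move every log2 ratio by -0.15 and turn the balance over all detected genes round, to 131 lower and 88 higher in replicate 1, against 95 lower and 141 higher with the sums over genes. The same 4 members then passed, against 32.3% of all detected genes that were lower in replicate 1 (30.8% with DESeq2 size factors, under which the same 4 passed). Over 2 libraries no exact test across samples can pass 0.05, since the smallest two-sided p of a sign-flip test is 0.5.

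**Figure D3:**
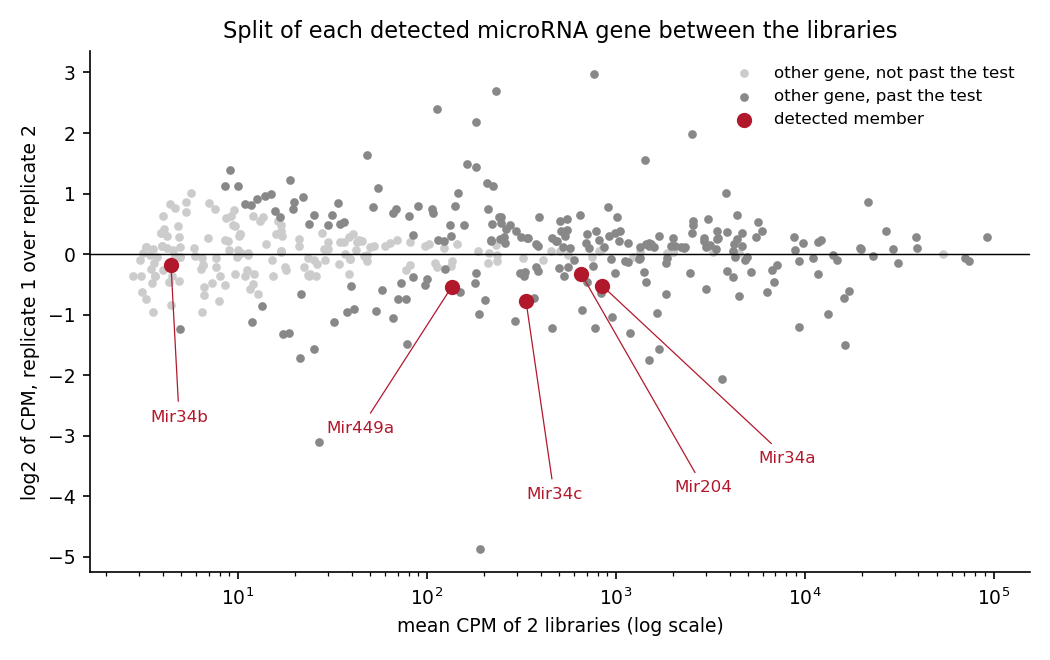
Log2 ratio of CPM, replicate 1 over replicate 2, against mean CPM (log axis) for the 406 detected genes; red points are the 5 detected members, dark grey points other genes past the exact binomial test and light grey points those that were not. The members lie below 0, from -0.78 for Mir34c to -0.19 for Mir34b, within the spread of the other genes.

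Other cell type lists moved between the libraries as well, in both directions with the sums over genes as totals. The summed level of the epithelial and sensory list (8 genes) was 72.7 CPM in replicate 1, against 122 CPM in replicate 2; 5 of its members were detected, and past the test replicate 1 was higher for 2 and lower for 2. Mir200b, a microRNA of epithelia, had 5.59 CPM in replicate 1 and 48.3 CPM in replicate 2, and Mir429, the leading gene of that list, 20.2 and 43.9 CPM, while Mir200c had 24.6 and 14.7 CPM. Mir141, Mir200a and Mir96 of that list had 11 counts or fewer per library. Mir126a of endothelium reached 10449 CPM (replicate 1) and 13176 CPM (replicate 2). The microglia and leukocyte list summed to 5952 and 8071 CPM, led by Mir342 (5821 and 7986 CPM), which was lower in replicate 1 past the test; Mir142 was higher past it (114 and 65.8 CPM) and Mir223 did not pass (16.5 and 19.1 CPM). The smooth muscle and pericyte list summed to 5074 and 5217 CPM, led by Mir143. The oligodendrocyte list ran the other way, at 2864 and 2531 CPM (log2 ratio 0.18), led by Mir219a-2. TMM library sizes move every such ratio by -0.15, so the size of this difference depends on the scaling. The log2 ratio of the neuron list, 0.10, is smaller than that move, so its direction depends on the scaling too. The part of any of these in the members' split was not tested.

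**Figure D4:**
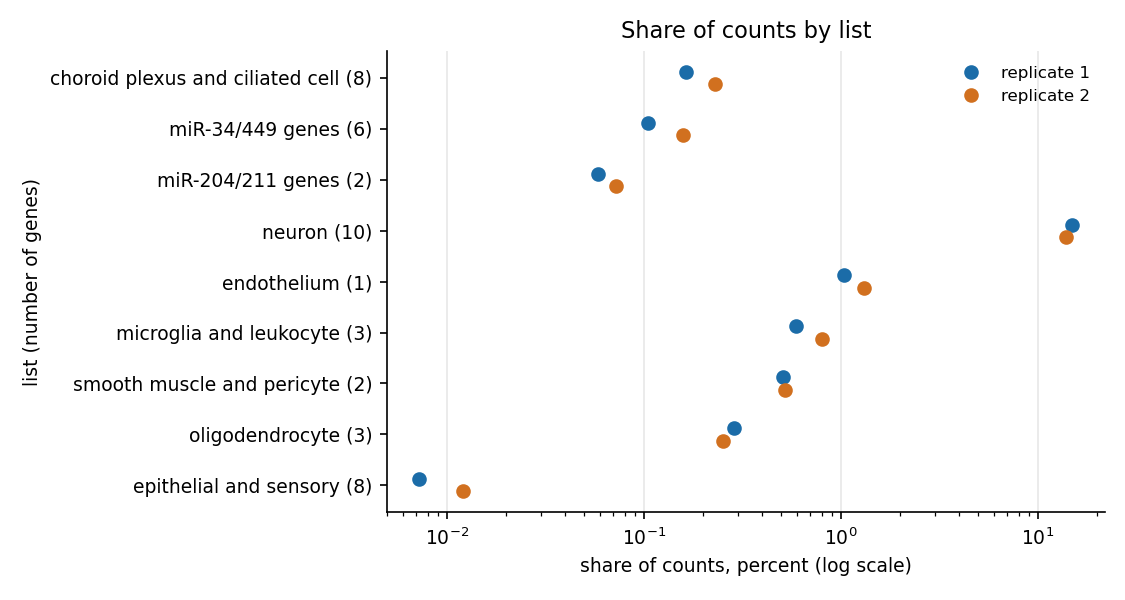
Share of all counts (percent, log axis) held by each list in replicate 1 (blue) and replicate 2 (orange), with the number of genes in parentheses; the upper 3 rows are the member list and its families. The member list, at 0.164 and 0.231%, lies between the oligodendrocyte list and the epithelial and sensory list.

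Set beside these lists, the 8 members held 0.198% ± 0.0474 of the counts (SD, n = 2), the oligodendrocyte list 0.270% ± 0.0235 and the epithelial and sensory list 0.00972% ± 0.00346. In replicate 1 the member list lay below the oligodendrocyte list (0.164 and 0.286%), and in replicate 2 the gap was smaller (0.231 and 0.253%). In both libraries it lay above the epithelial and sensory list. Lists differ in the number of their genes and in how many have further copies, so these are values side by side and no test was made.

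Because Mir34a is a known target of p53, 7 other microRNA genes tied to p53 were listed as well. Of these, 5 were detected. Past the exact binomial test, replicate 1 was higher for 1 of them and lower for 1, against 34.7% and 23.4% of all detected genes. Mir143, the most abundant, had 4840 CPM (replicate 1) and 5016 CPM (replicate 2) and was the lower one (log2 ratio -0.05). Mir145a stood at 234 and 201 CPM and was the higher one (log2 ratio 0.22). Mir107, which helps to regulate the cell cycle, stood at 3311 and 3232 CPM. Mir192 had 8.51 and 10.7 CPM (log2 ratio -0.32) and Mir194-2 had 32.1 and 27.9 CPM (log2 ratio 0.20), and neither passed. Mir194-1 and Mir215 had 0 counts in both libraries. With the sums over genes as totals, these genes went in both directions. TMM library sizes move every log2 ratio by -0.15, more than the 0.04 of Mir107, so this tally depends on the scaling. The part of p53 in the split of Mir34a was not tested.

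For each detected member, the genes nearest in level were found by the distance between their log2(CPM + 1) values over the 2 libraries. Mir34a was nearest to Mir181a-1 (652 CPM in replicate 1 and 1011 CPM in replicate 2; distance 0.09) and Mir455 (707 and 808 CPM). Mir204 was nearest to Mir351 (593 and 817 CPM) and Mir329 (578 and 621 CPM). Mir34c was nearest to Mir29c (279 and 461 CPM) and Mir129-1 (286 and 368 CPM). Mir449a was nearest to Mir101a (118 and 182 CPM) and Mirlet7f-1 (125 and 143 CPM), and Mir34b to Mir5130 and Mir499, which had 15 to 18 counts per library. Over 2 libraries this likeness describes abundance only.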

How the data were processed

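The values are raw counts of reads for each microRNA gene, which the authors deposited unnormalized in 3 columns: strand ignored, strand of the gene, opposite strand. The descriptions beside the files name mm10 and GENCODE M21; no aligner, counter or setting is given in the sources used here. All 2202 gene IDs matched GENCODE M21, from which symbols, positions and hosts were taken. Same-strand counts were scaled to CPM by the sum over genes; reads in no gene row (63.4% in replicate 1, 63.6% in replicate 2) were left out. The limit for 0 counts is 3 counts. Depth was 11224232 and 8758378 reads. The split test ran in scipy 1.17.1 and was tested on simulated counts. Size factors came from edgeR 4.0.16 (TMM) and DESeq2 1.42.0 as alternatives; with 1 group and 2 libraries, edgeR's quasi-likelihood test has no contrast. The members and lists were chosen with earlier results of these data known. Named genes are the members, the 2 nearest genes in level of each detected member, each list's leading gene and microRNA genes near a member. Mir7670 was named for its seed. Named as list members after their values were seen were Mir132, Mir142, Mir223, Mir200b, Mir200c, Mir141, Mir200a, Mir96, Mir145a, Mir107, Mir192, Mir194-1, Mir194-2 and Mir215. Mir124a-1, Mir124a-2 and Mir124a-3 were named in the same way. Alternatives were the counts with strand ignored, TMM and DESeq2 sizes, all reads or all but Mir139 as total, count minimums of 1 and 50, an adjusted p under 0.01, pseudocounts of 0.1 and 10, and leaving out the leading member or a replicate. Division by hairpin length and totals without the neuron list were added after seeing the data.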

Additional observations from a re-analysis of the deposited data

Results flagged for a closer look

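On the strand opposite to Mir34b, outside the counts used for the levels, replicate 1 had 4 counts and replicate 2 had 2. The value of replicate 1 is above the limit of 3 counts that a count of 0 allows. Btg4 lies on that strand, with an intron there. The other 7 members had 0 counts on their opposite strand in both libraries. With strand ignored Mir34b had 21 counts in replicate 1 and 17 in replicate 2.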

How the results depend on the processing

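With 1 group there was no contrast to pair; no paired analysis was possible because the libraries belong to a single group. The calls on the split of the members held in all 34 values computed under other settings, with log2 ratios (replicate 1 over replicate 2) of -0.92 to -0.76 for Mir34c, -0.66 to -0.50 for Mir34a, -0.69 to -0.53 for Mir449a and -0.47 to -0.30 for Mir204; Mir34b ran from -0.33 to -0.06 and never passed. The largest adjusted p of a passing member was 5.01e-08 (exact binomial test). The other count minimums and the stricter adjusted p left every log2 ratio of the members unchanged. Only the library sizes, the strand setting and the totals without the neuron list could move these ratios. Over all genes, those higher in replicate 1 numbered 141, against 88 with TMM sizes. With all reads as the total, the shares were 0.0721% for the list, 0.0482% for the Mir34 and Mir449 genes and 0.0239% for Mir204 with Mir211, since the total is larger. Leaving out Mir34a, the leading member, gave 0.113% for the list, 0.0475% for the Mir34 and Mir449 genes and a family ratio of 0.714. Divided by hairpin length, Mir34a stood at 0.853 times Mir204, since its hairpin has 102 bases and that of Mir204 has 68. Without either replicate, the values ran from 0.164 to 0.231% for the list, 0.0584 to 0.0728% for Mir204 with Mir211, 0.106 to 0.158% for the Mir34 and Mir449 genes, 1.81 to 2.17 for the family ratio and 1.19 to 1.37 for Mir34a over Mir204; with 2 libraries these cannot move by more than their SD. Count minimums of 1 and 50 gave 7 and 4 detected members. All 10 pairs of nearest genes were shared at either other pseudocount. Mir211, Mir449c and Mir449b are limited by depth.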
